A study of Mus musculus with 18 samples.

Results

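The genes described here encode the proteasome: its catalytic core, its regulatory caps, the activators, the inhibitor and the chaperones that assemble it. Members were the rows of the gene table whose symbol starts with Psm, one letter from a to g and a number, without pseudogenes, which gave 51 of 16614 genes. The cells were mouse dendritic cells grown from bone marrow for 7 to 10 days in Flt3L at 100 ng/ml together with GM-CSF at 20 ng/ml, then sorted as CD11c+ Xcr1+ cells or enriched with an XCR1 antibody and beads. XCR1 marks type 1 conventional dendritic cells (cDC1), which present peptides of ingested and internal proteins on MHC class I. Each library came from wild-type (WT) or knockout (KO) cells, and each was either a control or treated with LPS, the bacterial lipopolysaccharide sensed by Toll-like receptor 4. There were 4 control libraries and 5 LPS libraries of each genotype, 18 in all. Which gene was deleted, the dose and time of LPS, and which purification a sample had are not stated in the labels. They also do not say whether replicates were separate animals or cultures, so the p-values measure the spread between these samples, which may be technical. The series title refers to a balance of STAT5 and STAT3 in these cells. With no gene named, the deletion itself could not be checked.

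Proteasomes degrade ubiquitin-tagged proteins. The 20S core is a barrel of alpha rings, which gate the entry, around beta rings, of which the subunits encoded by Psmb5, Psmb6 and Psmb7 cut peptide bonds. Interferon-gamma and inflammatory signals induce alternative catalytic subunits, Psmb8, Psmb9 and Psmb10, that replace Psmb5, Psmb6 and Psmb7 in newly built particles called immunoproteasomes, and also the PA28 cap made from Psme1 and Psme2. Immunoproteasomes change which peptides reach MHC class I, and dendritic cells are known to express them without stimulation.

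The deposited table gave 25590104 to 27375189 estimated counts per library. No 2 replicates of a group agreed within sampling noise: over 32 replicate pairs the chi-square per degree of freedom was 2.73 to 75.8. All 10 cDC1 markers passed the filter on low counts, and their summed level, in CPM (counts scaled to library size, TMM-adjusted), was lower with LPS without overlap, at 7889 to 8193 against 6276 to 7579 in WT and 7347 to 8487 against 5954 to 6778 in KO. Wdfy4 and Irf8 weighed most in this sum, with means of 3506 and 1851 CPM in WT control. Of these 10 markers, 2 were called higher and 6 lower with LPS in WT, and 2 higher and 5 lower in KO. Of all genes tested, 40.7% were called higher and 44.7% lower in WT, and 40% and 46.2% in KO, so the number of falls is near the background. Xcr1 went from a mean of 175 to 428 CPM in WT and from 109 to 281 CPM in KO, while in WT Itgae went from 269 to 58.5 CPM and Tlr3 from 329 to 71.3 CPM. For KO against WT, 1 of the 10 markers was called higher and 1 lower in control, beside 2.41% of all genes called. With LPS 2 were called higher and 4 lower, beside 10.8%. Xcr1 was lower in KO without overlap, at 108 to 110 against 168 to 181 CPM in control and 240 to 306 against 388 to 465 CPM with LPS. Its bearing on the genotype values below was not tested. Summed markers of monocytes and macrophages were 56.9 to 92.1 CPM in control and 103 to 235 CPM with LPS, those of plasmacytoid dendritic cells 43.2 to 50.8 and 138 to 198 CPM, those of type 2 dendritic cells 114 to 215 CPM overall. Neutrophil markers summed to 0.139 to 16.5 CPM in WT control and 0.270 to 59.3 CPM in WT LPS, and to at most 1.55 CPM in KO libraries. The high WT LPS sum came mostly from a single library: S100a8 had a mean of 5.94 CPM and a maximum of 27.9 CPM there. Ly6g was at most 0.333 CPM in WT LPS and at 0 in all 5 KO LPS libraries, too low to compare. Lymphocyte markers stayed at or under 6.55 CPM and erythroid and platelet markers at or under 13.1 CPM. The sums for monocytes and macrophages, plasmacytoid cells and lymphocytes were higher with LPS, and their part in the values below was not tested. In bulk RNA, fewer cells of a type and less RNA per cell cannot be told apart.

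Some libraries stood apart over the proteasome genes. WT control replicate 1 had the highest CPM of its group in 41 of the 50 tested members, and KO control replicate 4 in 42 of 50, with a median deviation from the group mean of 0.08 and 0.11 on the log2 scale. WT LPS replicate 2 was the highest of its group in 25 members and the lowest in 14. The lowest control values came most often from WT control replicate 3 (27 of 50) and KO control replicate 2 (28 of 50).

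Of the 51 members, 50 passed the filter. The exception was Psmb11, the beta subunit of the thymic cortex proteasome, with 1 estimated count in WT LPS replicate 3 and 0 in the other libraries. Psma8, the alpha subunit of the testis, passed at a mean of 0.502 CPM in WT control. Psme2b is a near-identical copy of Psme2: their longest coding transcripts in GENCODE M21 matched at 789 of 794 aligned bases (99.4%), so the split of reads between these genes is uncertain. Psmc3ip and Psme3ip1 were taken by the rule through their symbols, but encode interacting proteins and not proteasome subunits.

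In WT control cells, 2 of the 3 immunoproteasome beta genes, Psmb8 and Psmb9, already had more transcript than any constitutive catalytic gene, while Psmb10 had less. On the TPM scale, which is per transcript length and allows levels of different genes to be compared, Psmb8 had 893 ± 24.0 (mean ± SD, n = 4), Psme1 806 ± 22.6, Psme2 646 ± 26.4 and Psmb9 520.0 ± 12.5. Psmb10 had 118 ± 9.34 TPM. Among the constitutive catalytic subunits, Psmb7 had 258 ± 7.29 TPM, Psmb5 227 ± 16.1 and Psmb6 165 ± 2.30. The 3 immunoproteasome beta genes summed to 1531 TPM and the 3 constitutive catalytic genes to 651 TPM in WT control. The members of the alpha ring, which share a fixed stoichiometry in the particle, lay close together, from 188 TPM for Psma3 to 301 TPM for Psma7, a ratio of 1.60 between the highest and the lowest. The 19S ATPases ranged from 73.3 TPM for Psmc6 to 196 TPM for Psmc3, and the 19S non-ATPases from 55.3 TPM for Psmd12 to 161 TPM for Psmd4.

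Most proteasome transcripts were higher with LPS relative to other genes, with PA28 among the largest rises and several assembly chaperones among the falls. In WT cells, 43 of 50 tested members rose and 6 fell at an adjusted p under 0.05 (edgeR's quasi-likelihood test with Benjamini-Hochberg adjustment over all genes). Of all 11989 genes tested, 85.5% were called, 40.7% higher and 44.7% lower, and 86% passed an unadjusted p under 0.05, so a call by itself was common. The 2 groups did not overlap in 47 of the 50 members, beside 77.9% of all genes. The median log2 fold change was 0.86 for the members and -0.06 for all genes. In KO cells 41 members rose and 6 fell, beside 40% and 46.2% of all genes (86.2% in either direction, 86.7% at an unadjusted p under 0.05), 47 of 50 did not overlap (81.8% of all genes), and the medians were 0.81 and -0.10.

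How far these directions hold depends on the scaling. The mean TMM factor, which corrects for the makeup of a library, went from 1.36 in control to 0.814 with LPS in WT and from 1.32 to 0.769 in KO. Scaling by total counts in place of TMM shifted the median of all genes by -0.74 in WT and -0.78 in KO. The counts of members then became 24 higher and 15 lower in WT, and 19 higher and 16 lower in KO. Of all 11989 genes, 10754 in WT and 10853 in KO were called in either direction under that scaling, with medians of -0.80 and -0.88. Calls ended with the sign kept for Psmc5, Psmd4 and Psmd14 in WT and for Psma2, Psma7, Psmb7, Psmb8, Psmc4, Psmc5 and Psmd14 in KO. The median of the members exceeded that of all genes by 0.92 in WT and 0.91 in KO, a difference that a common scaling of all genes leaves nearly as it is by construction. On the TPM scale, a share of each library, all members together went from 8643 ± 178 to 11433 ± 194 in WT (SD, n = 4 and 5), which is 0.864% and 1.14% of the total, and from 8469 ± 295 to 11365 ± 48.6 in KO. Fold changes below use TMM, and the members whose sign turned under total-count scaling are named with each class.

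**Figure D1:**
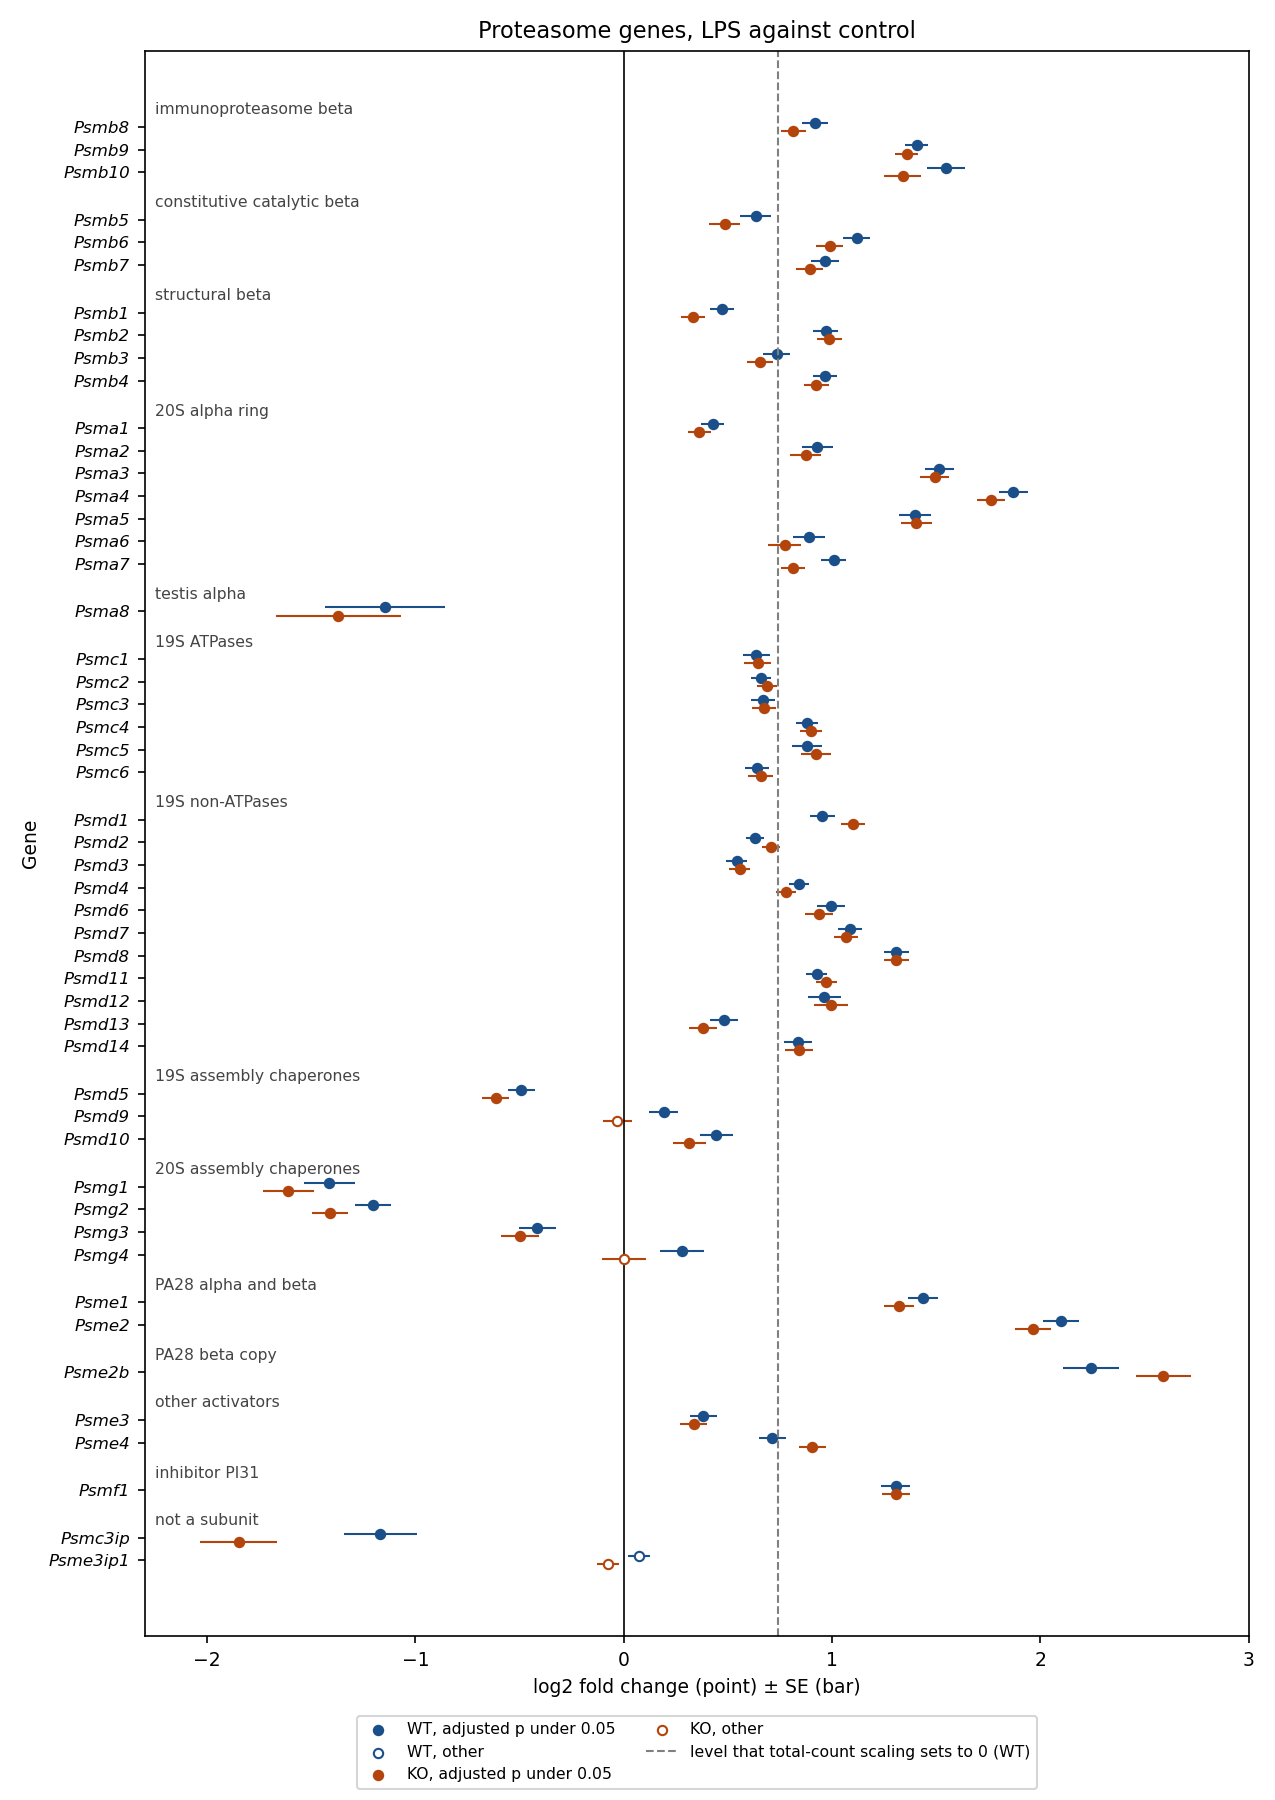
Each row is a tested proteasome gene, grouped by role, with its log2 fold change (x axis) of LPS against control in WT (blue, 5 against 4 libraries) and KO (orange, 5 against 4), bars showing the standard error and filled points an adjusted p under 0.05. Most genes lie right of 0 with TMM scaling, 43 of 50 in WT being called higher, while Psmg1, Psmg2, Psmg3, Psmd5, Psma8 and Psmc3ip are called lower. The dashed line marks 0.74, the level that total-count scaling sets to about 0 in WT, so WT points between 0 and this line lie near or below 0 under that scaling.

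The 5 genes known as interferon-inducible, Psmb8, Psmb9, Psmb10, Psme1 and Psme2, rose in both genotypes, and under total-count scaling these kept a positive sign too. Psmb8 encodes the chymotrypsin-like subunit of the immunoproteasome. Its CPM was 433, 409.7, 379 and 398 in WT control and 809, 847, 715, 711 and 739.7 in WT LPS. KO control libraries had 459, 422, 424 and 473, and KO LPS libraries 831, 737, 781, 793 and 766. Every LPS library exceeded every control library, and the log2 fold change was 0.92 ± 0.06 (± SE) in WT (adjusted p = 2.55e-11) and 0.81 ± 0.06 in KO (adjusted p = 1.42e-10). Total-count scaling left 0.17 in WT and ended the call in KO, at 0.03 (adjusted p = 0.57).

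Psmb9, which replaces the caspase-like subunit Psmb6 in the immunoproteasome, rose more. Its CPM in WT was 149, 143, 132 and 138 without and 369.8, 408, 362, 359 and 360.4 with LPS, and in KO 151, 155, 151 and 169 without and 423, 379.7, 394, 419 and 392 with LPS. Groups with and without LPS did not overlap, and the fold change was 1.41 ± 0.06 in WT (adjusted p = 5.24e-15) and 1.36 ± 0.06 in KO (adjusted p = 7.29e-15), on the log2 scale. Psmb10, the trypsin-like subunit, started lowest of the 3. It had 64.0, 54.6, 49.8 and 56.6 CPM in WT control and 160.4, 200.3, 148, 149 and 164 in WT LPS, with WT LPS replicate 2 the highest. The KO libraries had 65.1, 60.4, 61.2 and 70.2 CPM without and 175, 174, 146, 160.3 and 157 with LPS. The log2 fold change was 1.55 ± 0.09 in WT (adjusted p = 2.90e-12) and 1.34 ± 0.09 in KO (adjusted p = 2.21e-11).

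Psme1 and Psme2 encode PA28 alpha and beta, which form a ring that opens the core without ATP. Psme1 had 287, 270.4, 256 and 259.7 CPM in the WT control libraries and 776, 833, 657, 659.9 and 704 with LPS. In KO the values were 292, 279, 291 and 334 without and 780.1, 729, 724, 764 and 740.2 with LPS. It rose by 1.44 ± 0.07 in WT (adjusted p = 2.22e-13) and 1.32 ± 0.07 in KO (adjusted p = 6.52e-13), log2 scale. Psme2 rose most of the 5, from 196, 198, 172 and 193 CPM in WT control to 859, 978, 692, 731 and 805 in WT LPS. In KO it went from 219.8, 206, 212 and 237 to 896, 895, 791, 866 and 824 CPM. These changes were 2.10 ± 0.09 and 1.97 ± 0.09 on the log2 scale (adjusted p = 1.05e-14 and 2.36e-14). Psme2 passed Psmb8 and Psme1 in level with LPS: its mean TPM in WT went from 646 to 1657, that of Psme1 from 806 to 1307 and that of Psmb8 from 893 to 1013.

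The Psme2b copy ranged over 12.4 to 16.4 CPM in the WT controls and 60.5 to 84.8 with LPS. In KO it ranged over 11.0 to 17.5 CPM without and 85.3 to 101 with LPS. Its log2 fold change with LPS was 2.24 ± 0.13 in WT (adjusted p = 3.31e-12) and 2.59 ± 0.13 in KO (adjusted p = 3.31e-13), the highest of the members in each genotype, with the caution that reads may be split between it and Psme2.

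**Figure D2:**
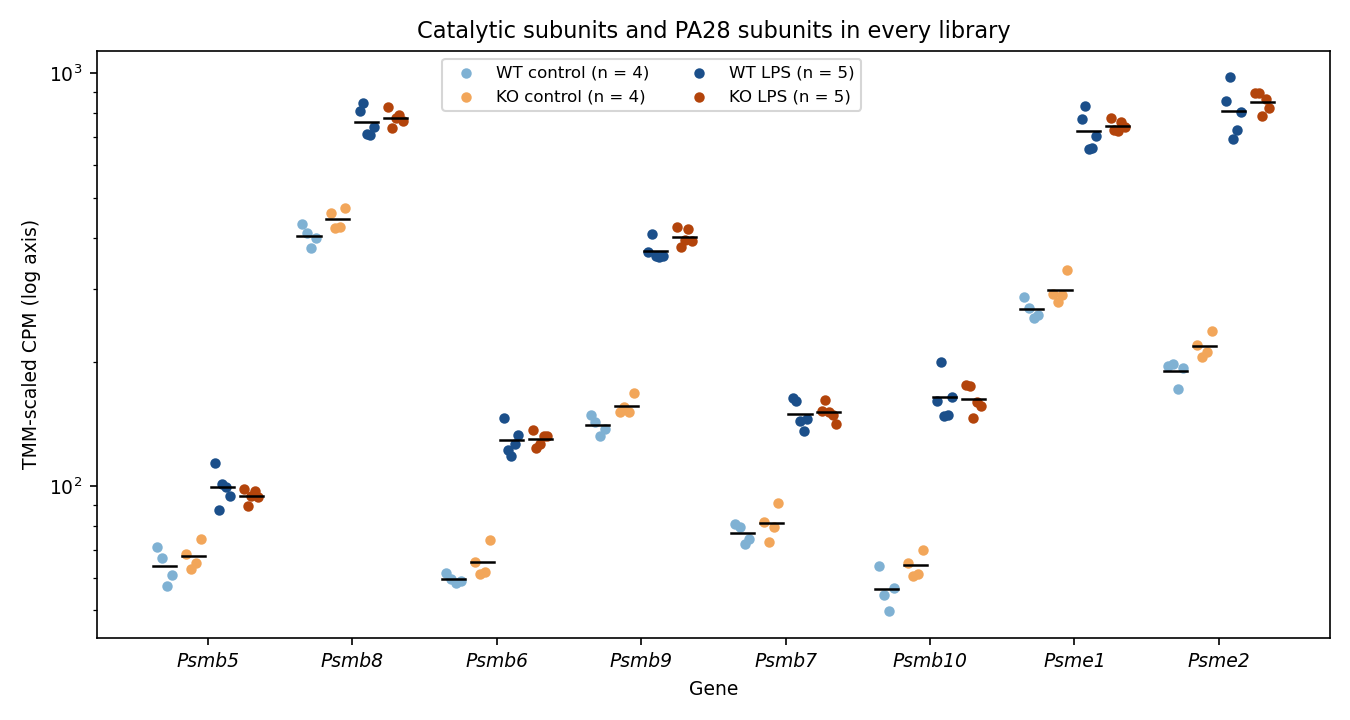
TMM-scaled CPM (log axis) of the constitutive catalytic subunits, the immunoproteasome subunits that replace them, and both PA28 genes, with 1 point per library and a black line at the group mean (4 libraries per control group and 5 per LPS group). For each of these 8 genes the LPS libraries lie above the control libraries in both genotypes, and WT and KO ranges overlap except for Psmb9 and Psme2 in control.

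The constitutive catalytic subunits rose with LPS as well, all 3 called higher in both genotypes, beside 40.7% of all genes in WT and 40% in KO. However, Psmb5 changed sign under total-count scaling (-0.11 in WT and -0.30 in KO). Psmb5, the chymotrypsin-like subunit that Psmb8 replaces, had 71.0, 67.0, 57.2 and 60.8 CPM in the WT control libraries and 114, 87.7, 101, 99.5 and 94.4 with LPS. In KO the values were 68.6, 62.9, 65.1 and 74.4 without and 98.3, 89.6, 94.5, 97.0 and 94.2 with LPS. Its log2 fold change was 0.63 ± 0.07 in WT (adjusted p = 1.15e-07) and 0.48 ± 0.07 in KO (adjusted p = 4.24e-06), the lowest of the 3. Psmb6, the caspase-like partner of Psmb9, went in WT from 61.6, 59.6, 58.3 and 58.7 CPM to 146, 122, 118, 126 and 133 with LPS, and in KO from 65.4, 61.1, 62.0 and 74.0 to 137, 124, 126, 133 and 132. It rose by 1.12 ± 0.06 in WT (adjusted p = 2.42e-12) and 0.99 ± 0.06 in KO (adjusted p = 1.37e-11), log2 scale, which is above the change of Psmb8. Psmb7, the trypsin-like partner of Psmb10, had 80.9, 79.5, 72.4 and 74.4 CPM in the WT controls and 163, 161, 143, 136 and 145 with LPS. The KO libraries had 81.7, 73.2, 79.8 and 90.8 CPM without and 152, 161, 151, 149 and 141 with LPS. No LPS library of these 3 genes fell within the control range, and the log2 fold changes of Psmb7 were 0.96 ± 0.07 (adjusted p = 4.50e-11) and 0.89 ± 0.07 (adjusted p = 1.31e-10).

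Placed among the 45 other tested members, the 5 inducible genes had a median log2 fold change of 1.44 in WT, beside 0.74 for the others, and 1.34 beside 0.77 in KO. The difference of these medians was 0.70 in WT and 0.57 in KO. The others include 7 assembly chaperones (median -0.41 in WT and -0.50 in KO), Psma8 and 2 genes that are no subunits, which lower their median. The 14 constitutive 20S subunits alone had medians of 0.97 in WT and 0.88 in KO, and the 17 subunits of the 19S cap 0.84 in both. The 5 genes and the 45 others were not separate. In WT, 17 of the 45 other members rose more than Psmb8, 3 more than Psmb9, 2 more than Psmb10, 3 more than Psme1 and 1, Psme2b, more than Psme2. In KO these counts were 20, 4, 4, 4 and 1.

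The balance within each catalytic pair was compared as a ratio of TPM in 1 library, in which the scaling of the library cancels. Psmb8 made up 79.1, 79.0, 80.5 and 80.3% of the summed TPM of Psmb8 and Psmb5 in the WT control libraries and 81.5, 85.8, 81.4, 81.6 and 83.0% in the WT LPS libraries. In KO it was 80.5, 80.7, 80.2 and 79.8% in control and 84.0, 83.7, 83.7, 83.5 and 83.5% with LPS. So the induced subunit was already the main transcript of this pair without LPS, and each LPS library lay above the control libraries of its genotype. The mean ratio of Psmb8 to Psmb5 went from 3.94 to 4.83 in WT and from 4.08 to 5.12 in KO. WT LPS replicate 2 had 6.04, against 4.37 to 4.88 in the other WT LPS libraries.

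Psmb9 gave a like picture against Psmb6. Its share of the pair was 76.4, 76.3, 75.1 and 75.8% in the WT controls and 77.0, 81.3, 80.3, 79.0 and 78.1% with LPS. In KO it was 75.6, 77.1, 76.7 and 75.2% and then 80.4, 80.0, 80.5, 80.6 and 79.6%. Psmb10 was the minor transcript of its pair with Psmb7 in every library. It held 33.1, 29.8, 30.0 and 32.3% in the WT controls and 37.5, 43.7, 38.2, 39.8 and 41.2% with LPS. The KO libraries had 32.9, 33.5, 32.0 and 32.3% and, with LPS, 41.5, 39.3, 37.0, 40.1 and 40.3%. Mean ratios of Psmb10 to Psmb7 went from 0.457 to 0.671 in WT and from 0.486 to 0.658 in KO.

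All 3 ratios were higher with LPS in both genotypes, with no overlap. The mean log2 ratio rose by 0.28 for Psmb8 to Psmb5, 0.27 for Psmb9 to Psmb6 and 0.55 for Psmb10 to Psmb7 in WT, and by 0.33, 0.35 and 0.44 in KO. Each of these 6 differences had p = 0.0159 in an exact two-sided permutation test over the libraries, the smallest p that 4 against 5 libraries allow, and 0.0317 after Benjamini-Hochberg adjustment over the 12 ratio tests. Between genotypes no ratio passed. KO minus WT was 0.05, 0.02 and 0.09 in control (exact permutation p = 0.257, 0.6 and 0.257, adjusted 0.343, 0.655 and 0.343) and 0.10, 0.09 and -0.02 with LPS (p = 0.31, 0.222 and 0.77, adjusted 0.371, 0.343 and 0.77), in the order of the pairs above. Without WT LPS replicate 2 the first of the LPS values, for Psmb8 to Psmb5, was 0.18 with an adjusted exact permutation p of 0.0476.

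**Figure D3:**
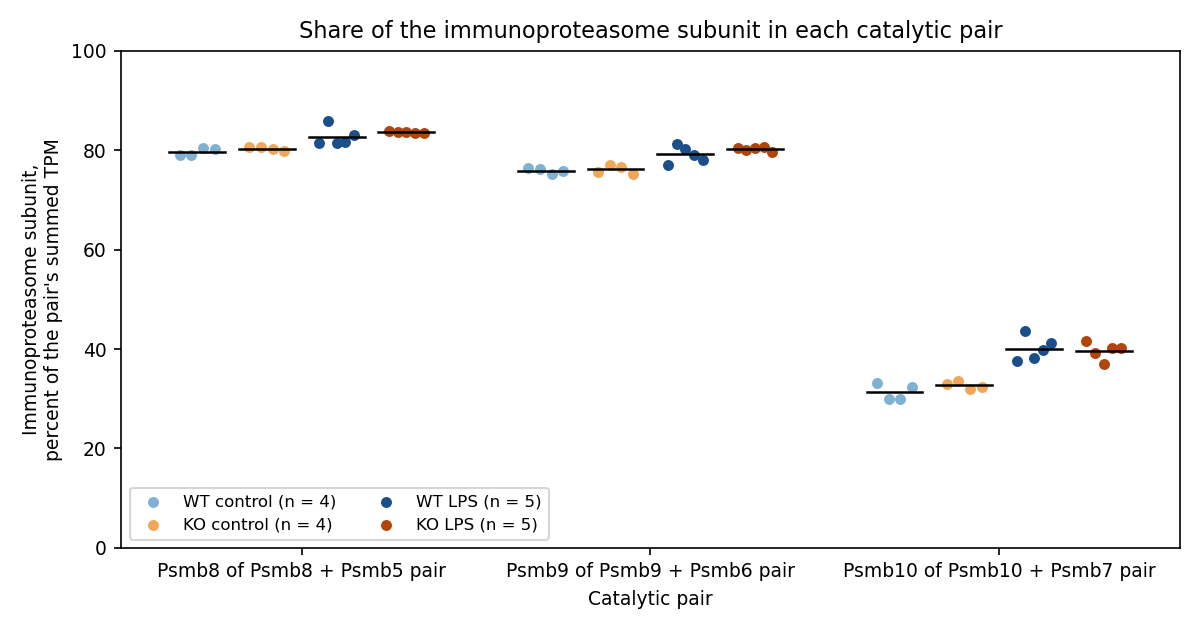
The immunoproteasome subunit as a percent of the summed TPM of its catalytic pair (y axis), 1 point per library with a black line at the group mean, for WT and KO with and without LPS (n = 4, 4, 5 and 5). Psmb8 and Psmb9 make up over 75% of their pairs in every library and Psmb10 under 44%, and LPS libraries lie above the control libraries of the same genotype in each pair.

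The start regions of these genes were read to see which carry short motifs of the factors known to act on them. RefSeq promoter windows (GRCm38.p6, 250 bases before the annotated start) matched 43 of the 51 members with 47 windows, and were searched on both strands. The GAS motif, TTCNNNGAA, bound by STAT factors, was in 2 of the 47 windows (Psmb8 and Psmg1) and in 7.02% of all 32851 windows. An interferon-response motif, a pair of GAAA with 2 bases between, was in 3 of 47 (2.98% of all), the antioxidant-response motif TGACNNNGC in 5 of 47 (Psmb5, Psmb6, Psmc6, Psmd9 and Psmd12, beside 10.16% of all) and a kappaB-like motif, GGGA and CC with 4 bases between, in 11 of 47 (17.63% of all). Of these 4 motifs, the 6 windows of the 5 inducible genes held 1 match, the GAS motif of Psmb8. The 3 stretches below are shown because they set the one inducible gene with a match beside the constitutive partner it replaces and a second constitutive catalytic gene; capitals mark the motif, GAS in Psmb8 and TGACNNNGC in the others.
Psmb8: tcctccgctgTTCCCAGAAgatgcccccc
Psmb5: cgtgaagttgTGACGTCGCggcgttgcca
Psmb6: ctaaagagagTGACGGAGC
The Psmb8 stretch lies at chr17:34198088-34198116 on the plus strand, with the motif starting 97 bases before the RefSeq start, and an exon of the GENCODE transcript Psmb8-201 overlaps it. The Psmb5 stretch is chr14:54618024-54618052 on the minus strand (motif 47 bases before the start) and that of Psmb6 chr11:70525338-70525356 on the plus strand (9 bases before). Psmb9 starts 226 bases from Tap1, on the opposite strand of chromosome 17, so both genes share the region between them. A match here is a run of letters and says nothing of binding.

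The rest of the core rose with LPS in both genotypes, where 40.7% of all genes were called higher in WT and 40% in KO. All 7 alpha ring genes were called higher in WT (median 1.01, from 0.43 to 1.87) and in KO, with Psma1 turning sign under total-count scaling in both and Psma6 in KO. Psma4 changed most of the core. It had 83.3, 75.3, 78.7 and 77.8 CPM in the WT control libraries and 298, 321, 262, 275 and 284 with LPS. In KO the values were 82.8, 81.6, 86.1 and 101 without and 305, 286, 290.4, 307 and 303 with LPS, with no overlap. The log2 fold change was 1.87 ± 0.07 in WT (adjusted p = 1.84e-15) and 1.76 ± 0.07 in KO (adjusted p = 3.72e-15), above those of Psmb8, Psmb9, Psmb10 and Psme1. Psma3 (1.52 in WT) and Psma5 (1.40) followed, while Psma1 rose by only 0.43. Thus the alpha ring, even in level without LPS, spread out: the ratio of its highest to its lowest mean TPM went from 1.60 to 2.67 in WT and from 1.67 to 2.87 in KO, with Psma1 lowest (164 TPM in WT LPS) and Psma4 highest (439 TPM).

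Structural beta genes, which build the ring without cutting peptides, were all 4 called higher in both genotypes (median 0.85 in WT), beside the 40.7% and 40% of all genes. However, Psmb1 and Psmb3 turned sign under total-count scaling. Psmb2 and Psmb4 rose by 0.97 and 0.97 in WT, Psmb3 by 0.74 and Psmb1 by 0.47. Psma8 fell. It ranged over 0.441 to 0.550 CPM in the WT controls and 0.0950 to 0.358 with LPS, and over 0.449 to 0.563 and 0.0512 to 0.297 CPM in KO. Its log2 changes were -1.15 ± 0.29 and -1.37 ± 0.30 (adjusted p = 0.00107 and 0.000281), at 1 to 20 counts a library. Psma8 passed the filter through its control libraries alone, since its LPS libraries lay under the minimum count of 10. The filter thus favours a fall for this gene, and its place among the members called lower carries no weight by itself.

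The 19S cap unfolds substrates with a ring of ATPases and binds and deubiquitinates them with its non-ATPase subunits. All 6 ATPase genes were called higher in WT within a narrow band (0.64 to 0.88) and in KO. Of all genes tested, 40.7% were called higher in WT and 40% in KO. However, Psmc1, Psmc2, Psmc3 and Psmc6 turned sign under total-count scaling in both genotypes. Their summed TPM was 722 in WT control and 721 in WT LPS, and 661 and 706 in KO. The 11 non-ATPase genes were called higher in both genotypes (median 0.93 in WT), with Psmd2, Psmd3 and Psmd13 turning sign under total-count scaling in both and Psmd4 in KO. Psmd8, a lid subunit, rose most of the cap. It went from 97.2, 95.1, 88.7 and 91.5 CPM to 244, 259, 209, 214 and 226 in WT, a log2 change of 1.31 ± 0.06 (adjusted p = 7.41e-14), and by 1.31 ± 0.06 in KO (adjusted p = 6.21e-14). Psmd7, also of the lid, rose by 1.09 in WT. Psmd14, the deubiquitinase of the lid, rose by 0.84, and Psmd4, a ubiquitin receptor, by 0.84. The smallest rises of the non-ATPases were those of Psmd3 (0.54) and Psmd13 (0.48).

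By summed TPM the classes diverged. In WT, PA28 alpha and beta went from 1452 to 2963, 2.04 times, and immunoproteasome beta genes from 1531 to 2039, 1.33 times. Alpha ring genes went from 1492 to 2056, 1.38 times, and constitutive catalytic genes from 651 to 738, 1.13 times. The 19S non-ATPases changed from 1148 to 1282, 1.12 times. PA28 transcripts, which summed to less than the immunoproteasome beta genes in WT control, summed to more with LPS. KO gave 1503 and 2997 for PA28 and 1552 and 2055 for the immunoproteasome beta genes.

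Alternative caps and the inhibitor also rose. Psme4 (PA200, linked to histone degradation) changed by 0.71 ± 0.06 in WT and 0.91 ± 0.07 in KO, and Psme3 (the nuclear PA28 gamma) by 0.38 ± 0.06 and 0.34 ± 0.06, of which Psme3 turned sign under total-count scaling in both genotypes and Psme4 in WT. Psmf1 encodes PI31, named as an inhibitor of the core. It had 26.5, 26.4, 24.2 and 25.1 CPM in WT control and 67.4, 71.2, 54.2, 60.2 and 62.5 in WT LPS, a log2 change of 1.30 ± 0.07 (adjusted p = 4.54e-13), and 1.31 ± 0.07 in KO (adjusted p = 3.86e-13). The groups did not overlap.

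Several assembly chaperones fell while the subunits they help to assemble rose. Of the 7 chaperone genes, 4 fell and 3 rose in WT, and 4 fell and 1 rose in KO, where 44.7% and 46.2% of all genes were called lower, so the number of falls is near the background. Psmg1 and Psmg2 form a dimer that starts the alpha ring. Psmg1 had 13.9, 12.6, 11.1 and 12.3 CPM in the WT control libraries and 5.20, 3.47, 5.00, 5.49 and 4.18 with LPS. In KO the values were 12.4, 13.2, 13.5 and 14.5 without and 3.48, 4.01, 5.73, 4.36 and 4.36 with LPS. It fell, with a change of -1.41 ± 0.12 in WT (adjusted p = 1.27e-09) and -1.61 ± 0.12 in KO (adjusted p = 1.89e-10), the log2 values of LPS minus control. Psmg2 had 12.7, 11.8, 12.0 and 11.7 CPM in WT control and 5.55, 4.09, 5.36, 5.04 and 6.03 in WT LPS. In KO it had 12.8, 13.3, 14.2 and 13.2 without and 4.30, 5.05, 5.39, 5.06 and 5.36 with LPS. Its changes were -1.20 ± 0.09 (adjusted p = 7.51e-11) and -1.41 ± 0.09 (adjusted p = 5.89e-12). No LPS library reached the control range for either gene.

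Psmg3, of the second chaperone dimer, changed by -0.41 ± 0.09 in WT (adjusted p = 0.000252) and -0.50 ± 0.09 in KO (adjusted p = 3.65e-05). Its partner Psmg4 was called higher in WT at 0.28 ± 0.11 (adjusted p = 0.0195), with overlapping groups, and not in KO (0.00 ± 0.11). That call ended without WT LPS replicate 2 (0.16, adjusted p = 0.0634), without the filter (0.23, adjusted p = 0.0542) and with just the compared groups in the fit (0.28, adjusted p = 0.0661), and the sign turned under total-count scaling and under removal of a length trend. Among the chaperones of the 19S base, Psmd5 had 22.8, 22.2, 22.9 and 23.2 CPM in WT control and 15.9, 14.7, 17.9, 15.8 and 16.8 in WT LPS. It fell, by a log2 change of -0.49 ± 0.06 in WT (adjusted p = 5.68e-07) and -0.61 ± 0.06 in KO (adjusted p = 2.43e-08). Psmd10 (gankyrin) rose by 0.44 in WT and 0.32 in KO, and Psmd9 by 0.19 in WT (adjusted p = 0.0151), a call lost without WT control replicate 3 (0.15, adjusted p = 0.0646) and without the filter (0.14, adjusted p = 0.0888), with -0.03 in KO (adjusted p = 0.685). Under total-count scaling Psmd9 turned sign in WT and Psmd10 in both genotypes (-0.30 in WT and -0.47 in KO). The 4 Psmg genes together went from 204 to 103 TPM in WT and from 213 to 98.8 TPM in KO.

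The 2 genes that are no subunits differed from the set. Psmc3ip, a partner in meiotic recombination, had 3.80 to 5.45 CPM in WT control and 1.07 to 2.57 in WT LPS, and fell, with a log2 change of -1.17 ± 0.18 in WT (adjusted p = 3.72e-06) and -1.85 ± 0.19 in KO (adjusted p = 1.30e-08). Psme3ip1 was not called in WT (0.07 ± 0.05) or in KO (-0.08 ± 0.05), but other settings called it in either direction. DESeq2 (0.13, adjusted p = 0.0188) and removal of the length trend (0.25, adjusted p = 7.77e-05) called it higher in WT, and total-count scaling called it lower in WT (-0.67) and KO (-0.86).

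Further proteasome genes outside the naming rule moved in a mixed way. Of 23 listed (chaperones, cofactors, shuttles and transcription factors), 22 were tested, and 16 rose and 5 fell with LPS in WT (median 0.37), 15 and 5 in KO (median 0.43). All genes had medians of -0.06 and -0.10, with 40.7% called higher and 44.7% lower in WT and 40% and 46.2% in KO. Nfe2l2 and Nfe2l1 encode transcription factors known to raise proteasome genes under oxidative stress and when proteasomes are inhibited. Nfe2l2 went from a mean of 51.7 to 466 CPM in WT, 3.17 ± 0.08 on the log2 scale (adjusted p = 6.38e-18), and Nfe2l1 from 109 to 312 CPM, 1.52 ± 0.06 (adjusted p = 5.85e-15). Zfand5 (2.13) and Zfand2a (1.07), zinc finger proteins that bind the 26S proteasome, the unfoldase Vcp (1.17) and the small 19S subunit Sem1 (0.96) also rose in WT. Of 15 genes of class I peptide supply and its regulators, 14 rose and 1, Irf8, fell in both genotypes, beside the same shares of all genes, with a median of 2.15 in WT and 2.10 in KO. Tap1, the peptide transporter gene next to Psmb9, went from a mean of 333 to 1586 CPM in WT (2.25 ± 0.06, adjusted p = 4.27e-17), and Nlrc5, the class I transactivator, changed by 4.04, H2-K1 by 2.47, H2-D1 by 2.30 and Tapbp by 2.15. Beside these, the median of the 5 inducible proteasome genes was 1.44.

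Between genotypes few proteasome genes passed the test. Without LPS, 0 of the 50 tested members were called in edgeR's quasi-likelihood test, beside 2.41% of all genes (1.89% higher and 0.525% lower), and 0 were called by DESeq2 and by limma-voom. At an unadjusted p under 0.05 there were 9 of 50 (13.9% of all genes): Psma4, Psmb1, Psmb6, Psmb8, Psmb9, Psmd4, Psme1, Psme2 and Psmg4, each higher in KO. KO was higher in 40 of 50, as in 57.2% of all genes, the median log2 difference being 0.06 for the members and 0.02 for all genes, and the groups did not overlap in 6 of 50, beside 14.7% of all genes. The median moved with KO control replicate 4, the library that was highest in 42 members: without it the median of the members was 0.02, and without WT control replicate 1 it was 0.09. It was 0.014 with total-count scaling and turned to -0.011 after removal of the length trend, where the median of all genes was 0.016.

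All 5 inducible genes had a positive value for KO minus WT in control, and none was called. Psmb8 differed by 0.13 ± 0.06 (adjusted p = 0.353), Psmb9 by 0.16 ± 0.06 (0.174), Psmb10 by 0.19 ± 0.09 (0.364), Psme1 by 0.16 ± 0.07 (0.346) and Psme2 by 0.21 ± 0.09 (0.271). Their median was 0.16, but 0.12 without KO control replicate 4 and 0.06 after removal of a length trend. For Psmb9 (132 to 149 CPM in WT, 151 to 169 in KO) and Psme2 (172 to 198 and 206 to 237) the groups did not overlap, for the other 3 they did. The constitutive partners Psmb5, Psmb6 and Psmb7 had 0.08, 0.14 and 0.08. The largest difference among the members was that of Psmg4, with 11.8, 11.6, 11.3 and 11.5 CPM in WT control and 14.3, 13.8, 13.2 and 14.8 in KO control, 0.28 ± 0.11 on the log2 scale (adjusted p = 0.227). These groups did not overlap, and the difference was called when the fit held just the control groups (0.26, adjusted p = 0.0137), with runs of library numbers as a block (0.28, adjusted p = 0.0414) and without WT LPS replicate 2 (0.28, adjusted p = 0.0289). Those settings called more of all genes too: 895 of 11606, 614 of 11989 and 751 of 11968 in that order, against 289 of 11989 in the main fit.

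With LPS, 1 of 50 members was called, Psme2b, higher in KO, beside 10.8% of all genes (5.3% higher and 5.5% lower). Psme2b had 60.5, 84.8, 62.3, 73.4 and 81.1 CPM in WT LPS and 94.3, 99.4, 85.3, 88.2 and 101 in KO LPS. It was the 1 member of 50 whose groups did not overlap, beside 6.51% of all genes, and the log2 difference was 0.37 ± 0.11 (adjusted p = 0.0421). This call ended under total-count scaling (0.30, adjusted p = 0.0708) and without any 1 of 11 libraries, namely WT LPS replicates 1, 3 and 4, KO LPS replicates 1, 2, 4 and 5, KO control replicate 1 and WT control replicates 2, 3 and 4. Psme2, which shares nearly all of its sequence with Psme2b, differed by 0.07 ± 0.08 (adjusted p = 0.596). At an unadjusted p under 0.05 there were 5 of 50 members (26.2% of all genes), Psmb9, Psmd13, Psmd9, Psme2b and Psmc3ip.

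None of the 5 inducible genes was called between genotypes with LPS. KO minus WT was 0.03 ± 0.06 for Psmb8, 0.11 ± 0.05 for Psmb9 (adjusted p = 0.166), -0.02 ± 0.08 for Psmb10 and 0.04 ± 0.06 for Psme1. WT LPS replicate 2 bore on this comparison. Without it the called members were Psmb9 (0.15, adjusted p = 0.0237), Psme4 (0.19, adjusted p = 0.00675) and Psme2b (0.44, adjusted p = 0.00569), higher in KO, and Psmd9 (-0.19, adjusted p = 0.0332) and Psmc3ip (-0.68, adjusted p = 0.00898), lower. Calls among all genes rose as well, from 1294 of 11989 to 3344 of 11968, so the added calls were not particular to the members. With all libraries Psme4 had 0.12 ± 0.06 and Psmc3ip -0.54 ± 0.21 (adjusted p = 0.207 and 0.101).

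**Figure D4:**
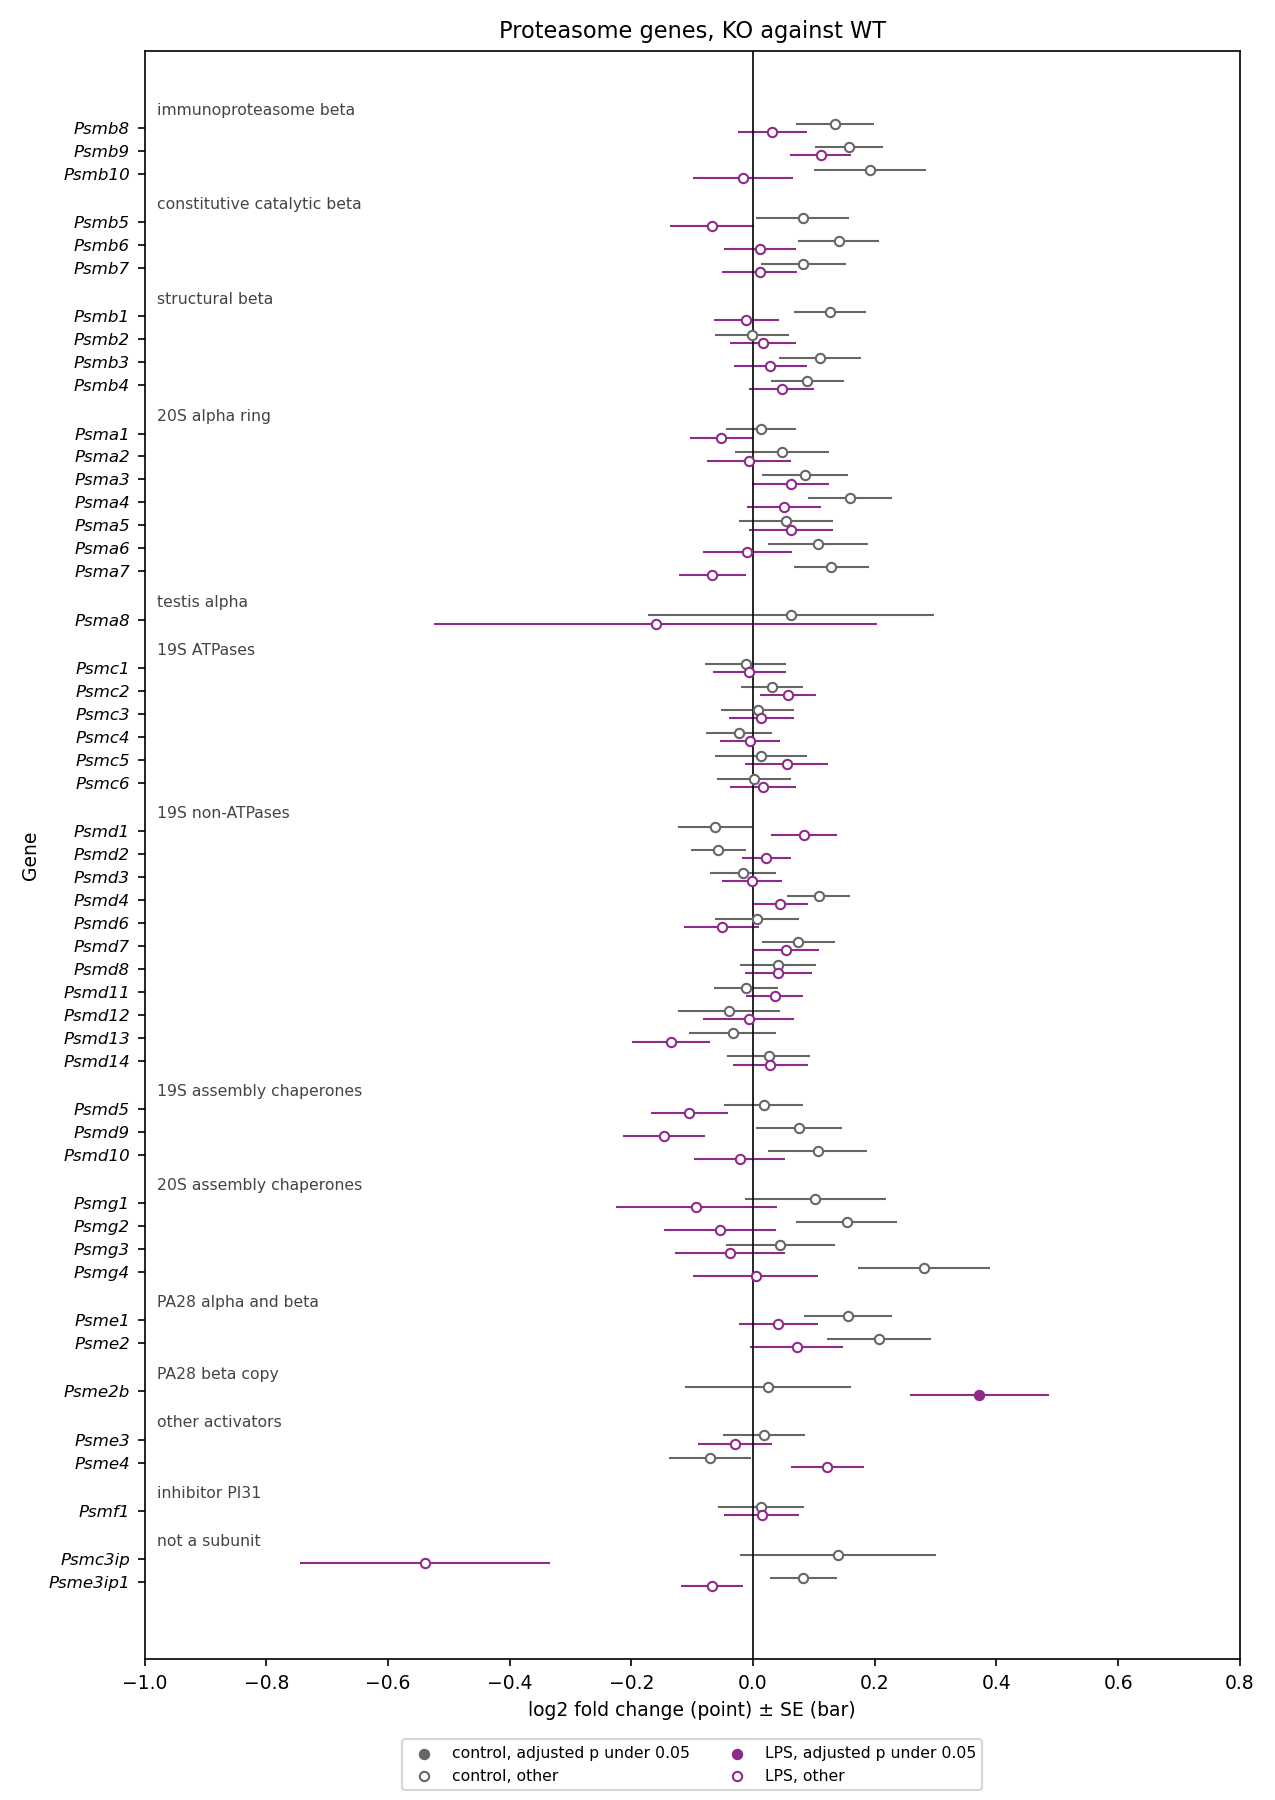
Each row is a tested proteasome gene with its log2 fold change (x axis) of KO against WT in control (grey, 4 against 4 libraries) and with LPS (purple, 5 against 5), bars showing the standard error and filled points an adjusted p under 0.05. The only filled point with TMM scaling is Psme2b with LPS at 0.37, and the grey points of the 5 inducible genes lie between 0.13 and 0.21.

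The response to LPS did not pass the test of a difference between KO and WT in any of the 50 members: 0 were called by edgeR's quasi-likelihood test (3.82% of all genes, 1.03% higher and 2.79% lower), 0 by DESeq2 and 0 by limma-voom. At an unadjusted p under 0.05 there were 4, Psma7, Psmd9, Psme4 and Psmc3ip, beside 18.6% of all genes. The response in KO minus that in WT was -0.10 ± 0.09 for Psmb8, -0.05 ± 0.08 for Psmb9, -0.21 ± 0.12 for Psmb10, -0.11 ± 0.10 for Psme1 and -0.13 ± 0.11 for Psme2. For the constitutive partners it was -0.15 ± 0.10 for Psmb5, -0.13 ± 0.09 for Psmb6 and -0.07 ± 0.09 for Psmb7. The median of the 5 inducible genes, -0.11, turned to 0.06 after removal of the length trend, and that of the other members from -0.06 to 0.09. Without WT LPS replicate 2, Psme4 (0.26, adjusted p = 0.0215) and Psmc3ip (-0.82, adjusted p = 0.022) were called.

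Genes that act beside the proteasome showed some differences by genotype. Of the 15 class I supply genes, 2 were called higher in KO without LPS, beside 2.41% of all genes called: the class I heavy chain genes H2-K1 (0.34 ± 0.05, adjusted p = 0.000607) and H2-D1 (0.29 ± 0.06, adjusted p = 0.00896). With LPS 3 were called higher in KO, beside 10.8% of all genes: the peptide transporter genes Tap2 (0.23 ± 0.05, adjusted p = 0.00409) and Tap1 (0.20 ± 0.06, adjusted p = 0.026) and the transactivator Nlrc5 (0.36 ± 0.09, adjusted p = 0.0171). The response to LPS was called smaller in KO for 1, H2-K1 (-0.26 ± 0.06, adjusted p = 0.0301), beside 3.82% of all genes. Of the 22 other proteasome genes tested, 0 were called in control (2.41% of all genes), 1 was at an unadjusted p under 0.05 (13.9% of all genes), and 1 was called with LPS (10.8% of all genes), the ubiquitin ligase Ube3c, whose mean was 27.9 CPM in WT against 31.6 CPM in KO (log2 difference 0.18 ± 0.05, adjusted p = 0.0259).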

How the data were processed

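RNA of 18 samples was sequenced on a DNBSEQ instrument as paired reads, per the labels' protocols. HISAT, Bowtie2 and the GRCm39 build are named, without versions, in the submitters' processing notes. The counting program and the annotation were not given in the sources used here. Per the file headers, the authors deposited estimated counts, TPM and FPKM for 16614 genes in 18 libraries. 6.37% of the estimated counts were not whole (tolerance 0.001), and they were rounded. TPM, as the authors deposited it, served for levels and ratios between genes, and the deposited FPKM for a check of the ratios.

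The estimated counts were fitted with edgeR 4.0.16 (R 4.3.3): TMM, filterByExpr (minimum count 10, total 15), glmQLFit and glmQLFTest with group means over all 18 libraries, and Benjamini-Hochberg adjustment over 11989 genes, called at an adjusted p under 0.05. The standard error is the fold change divided by the square root of F. CPM are TMM-scaled. Catalytic ratios were tested by exact permutation, 12 tests. Alternatives were DESeq2 1.42.0, limma-voom (limma 3.58.1), total-count scaling, no filter, only the groups compared, a replicate block, a block of library numbers, removal of a length trend, each library left out, and, chosen after seeing the data, libraries 5 and 7 left out (replicate 2 of both LPS groups). The fit was tested on simulated counts for KO against WT with LPS alone, in which LPS itself had no effect. That check does not bear on the LPS contrasts or their scaling. Promoter windows and starts came from RefSeq on GRCm38.p6, not the files' build, so no other coordinates are given.

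The members and lists were chosen with earlier results of these data known. Any member could be named. Always named were the 5 inducible and 3 constitutive catalytic genes, in each contrast the 3 called members at each end of the fold changes, members called by genotype or interaction, and members that failed the filter or are no subunits. Of each of the 2 lists of other genes, up to 6 of lowest adjusted p were named with LPS in WT and for KO against WT with LPS; the class I genes called in control or in the interaction were named after their values were seen. 1 gene of the class I list is not reported here and is left out of the list's counts.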

Additional observations from a re-analysis of the deposited data

Results flagged for a closer look

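Within a group, 12 of 200 sets of values (50 genes in 4 groups) had a library whose gap to its nearest neighbour was large for the range of the group by Dixon's criterion, where chance gives about 1 in 20. KO control replicate 4 was high for Psma3 (104.9 CPM, nearest 88.4), Psma5 (103.8 CPM, nearest 90.2) and Psmc2 (62.9 CPM, nearest 56.5). WT control replicate 1 was high for Psmc2 (59.7 CPM, nearest 55.9), Psmd13 (71.1 CPM, nearest 63.5) and Psmd14 (70.9 CPM, nearest 64.1), and low for Psme2b (12.4 CPM, nearest 16.0). WT LPS replicate 2 was high for Psma5 (285 CPM, nearest 233) and Psmb9 (408 CPM, nearest 369.8), and WT LPS replicate 1 for Psme3ip1 (45.8 CPM, nearest 42.7). KO LPS replicate 3 was low for Psmd8 (225 CPM, nearest 239) and high for Psmd9 (15.4 CPM, nearest 14.7).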

How the results depend on the processing

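Counts limit mainly Psma8 (as low as 1 count in a library) and Psmc3ip (21). For the response to LPS, total-count scaling moved the calls most: members called became 24 higher and 15 lower in WT and 19 higher and 16 lower in KO, and KO against WT with LPS became 0 higher and 1 lower (Psmd13). Of all 11989 genes, that scaling called 10754 with LPS in WT, 10853 in KO and 1548 for KO against WT with LPS. The log2 fold changes that turned sign were, in WT, Psma1 -0.32, Psmb5 -0.11, Psmb1 -0.28, Psmb3 -0.0098, Psmc1 -0.11, Psmc2 -0.083, Psmc3 -0.073, Psmc6 -0.10, Psmd2 -0.11, Psmd3 -0.20, Psmd13 -0.26, Psmd9 -0.55, Psmd10 -0.30, Psme3 -0.36, Psme4 -0.038, Psmg4 -0.47 and Psme3ip1 -0.67, and in KO, Psma1 -0.42, Psma6 -0.010, Psmb5 -0.30, Psmb1 -0.45, Psmb3 -0.13, Psmc1 -0.14, Psmc2 -0.10, Psmc3 -0.11, Psmc6 -0.13, Psmd2 -0.073, Psmd3 -0.23, Psmd4 -0.0039, Psmd13 -0.40, Psmd10 -0.47, Psme3 -0.45 and Psmg4 -0.78. Removing the length trend turned Psmg4 in WT (-0.036) and Psmd9 (0.24) and Psme3ip1 (0.20) in KO, shifted the median of all genes by 0.12 in WT and 0.16 in KO, and called 5 members higher in KO with LPS (Psmb3, Psmb4, Psmb9, Psmc2 and Psme2b). Of all 11989 genes, 1448 were then called for KO against WT with LPS. For KO against WT in control, 1 member, Psmg4, was called higher with only the compared groups in the fit, with the block of library numbers and without libraries 5 and 7. Of all genes, 895 of 11606, 614 of 11989 and 822 of 11950 were called in these settings, against 289 of 11989 in the main fit. Leaving libraries 5 and 7 out also gave 3 higher and 1 lower member for KO against WT with LPS and 1 higher and 1 lower for the difference in response.

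Leaving out each library in turn gave 42 to 43 higher and 6 lower with LPS in WT, 41 higher and 6 lower in KO, 0 to 1 higher and 0 lower for the genotypes without LPS, 0 to 3 higher and 0 to 2 lower with LPS, and 0 to 1 in each direction for the difference in response. The ratio changes with LPS kept their direction: 0.20 to 0.32 (Psmb8 to Psmb5), 0.22 to 0.32 (Psmb9 to Psmb6) and 0.50 to 0.59 (Psmb10 to Psmb7) in WT, and 0.31 to 0.34, 0.32 to 0.37 and 0.41 to 0.48 in KO. In 17 of the 18 runs these 6 tests had adjusted exact permutation p of 0.0571 to 0.0714, since fewer libraries raise the smallest p that the tests allow. Between genotypes the ratios ranged from 0.03 to 0.07, -0.01 to 0.04 and 0.06 to 0.13 in control and from 0.064 to 0.18, 0.05 to 0.14 and -0.06 to 0.03 with LPS.

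The labels state no pairing by replicate number, and the values did not settle it. Correlations of same-numbered WT and KO libraries were low but all positive, at 0.03 to 0.25 in control and 0.01 to 0.35 with LPS. The same WT and KO pairs arise from runs of library numbers. By runs of library numbers, the WT control and WT LPS libraries correlated at 0.14 to 0.27 in all 4 pairs and the KO ones at -0.03 to 0.14. This block left the counts of members with LPS at 43 and 6 in WT and 41 and 6 in KO. It raised the calls among all genes for KO against WT, from 289 to 614 in control and from 1294 to 1915 with LPS. With the replicate block the counts were 43 higher and 6 lower with LPS in WT, 41 and 6 in KO, 0 and 0 between the genotypes without LPS, 1 and 0 with LPS, and 0 and 0 for the difference in response.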
